A study of Rattus norvegicus with 16 samples.

Results

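The 6 libraries of tibialis anterior muscle, a fast leg muscle, from Dmd mutant rats given a ketogenic diet were set against 4 libraries of the same muscle from wild-type rats given a normal diet, which asks how far the mutant muscle still differed from wild type on the diet. All rats were of the Wistar-Imamichi strain. The mutants (genotype Dmd, group DMD_KD, replicates 1, 3, 5, 7, 9 and 10) ate MCTKD, a ketogenic diet containing medium-chain triglycerides, from weaning until 9 months of age, and the wild types (group WT_ND, replicates 1, 3, 4 and 9) stayed on the normal diet. These are 10 of the series' 16 libraries. The other 6, from Dmd mutants on the normal diet (DMD_ND), are given beside them. Every gene of the deposited table with at least 1 FPKM (fragments per kilobase of gene length, scaled between libraries as described below) in at least 4 of the 16 libraries entered, which left 12119 of 31141 genes. No group of wild-type rats on MCTKD was analysed here, so the mutation and the diet differ together in this comparison and cannot be told apart. The labels used here do not state the sex of the rats or that each library comes from a different rat, so p-values measure the spread between libraries.

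Dystrophin, the product of Dmd, links the actin cytoskeleton of a muscle fibre through a complex of membrane proteins to the basement membrane, and fibres without it are damaged when they contract. In the muscle disease that follows, fibres die and are rebuilt from satellite cells, the muscle's stem cells, while macrophages clear debris and fibro-adipogenic progenitors lay down collagen. A ketogenic diet is poor in carbohydrate, so that tissues burn fatty acids and the ketone bodies that the liver makes from them, and medium-chain triglycerides yield ketone bodies readily.

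The 10 libraries held 17354005 to 28116085 reads assigned to genes, and the groups' totals differed by less than their spread (exact permutation test over 210 relabellings, two-sided p = 0.9). A larger share of wild-type reads fell on mitochondrially encoded genes (23.0 ± 2.41% SD, n = 4, against 15.6 ± 1.0%, n = 6, in DMD_KD, and 13.1 ± 0.776%, n = 6, in DMD_ND) and on the 10 most abundant genes (31.8 ± 2.70% against 24.0 ± 2.89%; exact permutation p = 0.00476 and 0.00952, both 0.0159 after adjustment over the 5 library measures compared). The deposited FPKM are already scaled by one median-of-ratios factor per library (1.10 ± 0.266 in DMD_KD and 0.714 ± 0.160 in WT_ND), which holds the middle of the genes level: the median log2 fold change over all tested genes was -0.06. Rescaled so that every library has the same total, as in TPM (a measure of transcript share, summing to a fixed total), the median gene lay at 0.50, a shift of 0.56, so every decrease below is relative to the other genes of the library, and those that flip under TPM are named. DMD_KD replicate 3 stood apart from the other 5 on the second principal component of the 10 libraries (19.6% of the variance, a score of 53.39 against -16.21 to 3.83), which also split the wild types (17.37 and 21.66 in replicates 1 and 4, -28.54 and -24.00 in replicates 3 and 9), while the first (67.0%) separated the groups (-45.03 to -23.07 in DMD_KD, 45.35 to 61.02 in WT_ND). On the markers of skeletal muscle, replicate 3 had a mean log2(FPKM + 1) of 12.20, within the wild-type range of 11.81 to 12.55, and the other 5 lay between 10.75 and 11.35. Counts of calls are given without it, or without a pair of wild types, where these move them by over 1.5 times.

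Dmd itself (X:47272331-49504207, plus strand, mRatBN7.2), the gene the mutation is named for, was read at 0.546 to 2.04 (median 1.47) FPKM in DMD_KD and at 5.95, 11.9, 4.13 and 7.30 FPKM in the 4 wild types. All 6 mutant libraries lay below all 4 wild types, and the mean fell by 1.77 on the log2(FPKM + 1) scale (SE 0.21, limma adjusted p = 2.24e-06, n = 6 and 4). The labels do not say which part of the gene is changed, so reads that remain do not bear on whether protein is made. DMD_ND read 1.76 ± 0.208 FPKM (SD, n = 6).

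Muscle of the mutants on the diet differed from wild type over most of the transcriptome. Of 12119 tested genes, 7068 (58.3%) differed at a limma adjusted p under 0.05, 3304 higher (27.3%) and 3764 lower (31.1%). Measured as log2(FPKM + 1), large increases were more numerous: 1264 genes rose and 693 fell by at least 2-fold, 279 rose and 29 fell by at least 4-fold, and 57 rose and 4 fell by at least 8-fold. The wild-type and DMD_KD libraries did not overlap at all for 4514 genes (37.2%), 2418 of them higher (20%) and 2096 lower (17.3%) in DMD_KD. Under TPM the split of calls turned to 6909 higher and 576 lower, with 315 of the 7068 calls made in the opposite direction, and under TPM over nuclear genes alone, an alternative added after the data were seen, it was 4857 higher and 1283 lower. In DMD_ND, measured against the same 4 wild types, 7967 genes (65.7%) differed, 31.5% higher and 34.3% lower, 1690 of them higher and 1226 lower by at least 2-fold, and the median size of the log2 change was 0.54, beside 0.44 for DMD_KD.

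**Figure D1:**
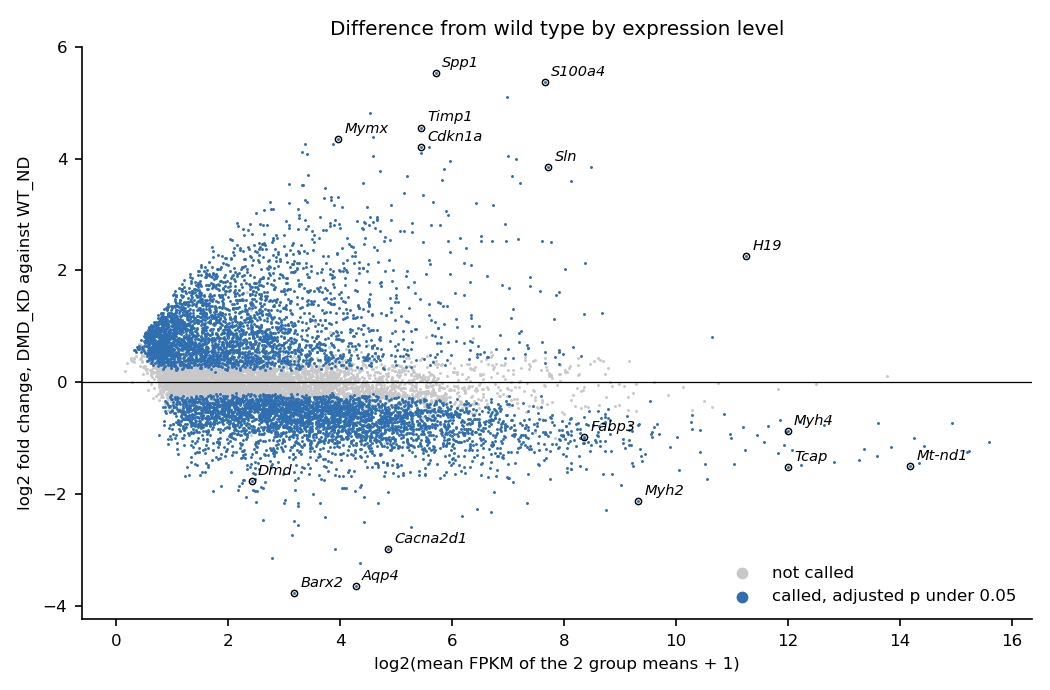
Log2 fold change of each tested gene in DMD_KD against WT_ND (y axis, on the log2(FPKM + 1) scale) by its mean level over both groups (x axis), with called genes in blue, genes not called in grey and examples circled. The rises spread among genes of low and middle level up to 5.54 for Spp1, and most genes at the right edge, among them Tcap, Mt-nd1 and Myh4, lie below 0.

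The direction went with the level. Above a mean of 100 FPKM over both groups, 54 of 513 genes rose and 321 fell, whereas below 1 FPKM 644 of 1061 rose and 27 fell. The filter bears on the second count, since 1276 tested genes reached 1 FPKM in no wild-type library and passed through the mutants alone. Of these, 1121 were called higher. By gene type, 3029 of 11110 protein-coding genes rose and 3555 fell, 87 of 358 lncRNAs rose and 79 fell, and 35 of 140 snoRNAs (small RNAs that guide modification of ribosomal RNA, poorly sampled by poly-A capture) rose with none lower. Genes of the mitochondrial genome stood out in the other direction, with 30 of 34 lower and none higher. In the longest of 5 equal classes of gene length 572 rose and 861 fell, against 658 and 596 in the shortest.

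Genes not called are not thereby shown to be at the wild-type level. The 95% interval of the fold change lay within 1.5-fold either way for 3861 genes (31.9%), 3303 of them not called. For 302 genes not called the interval reached a 2-fold change. Libraries spread more in DMD_KD than in DMD_ND, with a median SD over genes of 0.249 on the log2 scale against 0.154, and the DMD_KD value without replicate 3 was 0.157. In the wild types it was 0.239.

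The largest increase was that of Spp1 (14:5308885-5315162), which encodes osteopontin, a secreted matrix and cytokine-like protein made by macrophages and regenerating muscle. It was read at 43.4 to 257 (median 82.4) FPKM in DMD_KD and at 1.75, 0.376, 1.16 and 0.472 FPKM in the wild types, a rise of 5.54 (SE 0.68, limma adjusted p = 3.36e-06). S100a4, a calcium-binding protein of fibroblasts and leukocytes, followed at 392 ± 77.2 FPKM (SD, n = 6, as for every DMD_KD mean below) against 8.57 ± 2.38 FPKM (n = 4, as for every WT_ND mean below), a log2 change of 5.37. Ankrd1, a stretch-induced ankyrin-repeat protein of the sarcomere, was the third, from 2.55, 13.9, 2.80 and 9.61 FPKM in the wild types to 138 to 353 (median 234) FPKM. The groups lay far apart for all 3, with the lowest DMD_KD library many times above the highest wild type. The other genes among the 12 largest increases fell into a few kinds: matrix and its regulators (Timp1, an inhibitor of matrix proteases, 4.56; Cilp, a cartilage matrix protein, 4.40; Mfap4, a microfibril glycoprotein, 4.10), myoblast fusion (Mymx 4.36 and Mymk 4.26), cell cycle arrest (Cdkn2a 4.27 and Cdkn1a 4.20), the macrophage glycoprotein Gpnmb (4.22) and Ctxn3, a small membrane protein (4.81). For each of these 12 genes the 10 libraries separated by group.

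Cdkn2a had no reads in any of the 4 wild-type libraries and 14.5 to 27.6 (median 17.2) FPKM in DMD_KD. Against the floor of 3 reads per wild-type library (0.188 FPKM on average) it was at least 99.1-fold higher. In all, 197 genes with no wild-type read were read in every DMD_KD library, and 3 genes showed the reverse. The other named examples were Odf3l1, an outer dense fibre-like protein, at 2.61 ± 0.760 FPKM and at least 14.9-fold higher, and the tachykinin precursor Tac4 at 2.52 ± 1.02 FPKM and at least 15.6-fold higher.

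Because 1 is added before the logarithm, the fall of a gene that ends below 1 FPKM comes out too small. With that offset the largest decrease was that of Barx2, a homeobox factor of muscle progenitors, from 21.0, 8.52, 21.4 and 12.9 FPKM in the wild types to 0.0650 to 0.500 (median 0.113) FPKM (-3.78, SE 0.19, limma adjusted p = 1.75e-10). Aqp4, the water channel of the fast fibre membrane that is anchored by the dystrophin complex, read 1.85 ± 0.761 FPKM against 34.9 ± 10.6 FPKM (-3.65), and Prkaa2, the catalytic alpha2 subunit of the energy sensor AMPK, 2.90 ± 1.17 against 36.2 ± 13.7 FPKM (-3.23). The groups were separate for each of them. Unc5a, a netrin receptor (-3.16), Cacna2d1, the alpha2-delta subunit of the muscle calcium channel (-3.0), the small GTPase Rhou (-2.99), Prima1, the membrane anchor of acetylcholinesterase (-2.75), and Nrtn, the neurotrophic factor neurturin (-2.56), followed. The last 4 of the 12, all with separate groups, were Zyg11b (-2.50), Sbk2 (-2.48), Mettl11b (-2.46) and Ppp1r1a, a protein phosphatase 1 inhibitor (-2.40).

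**Figure D2:**
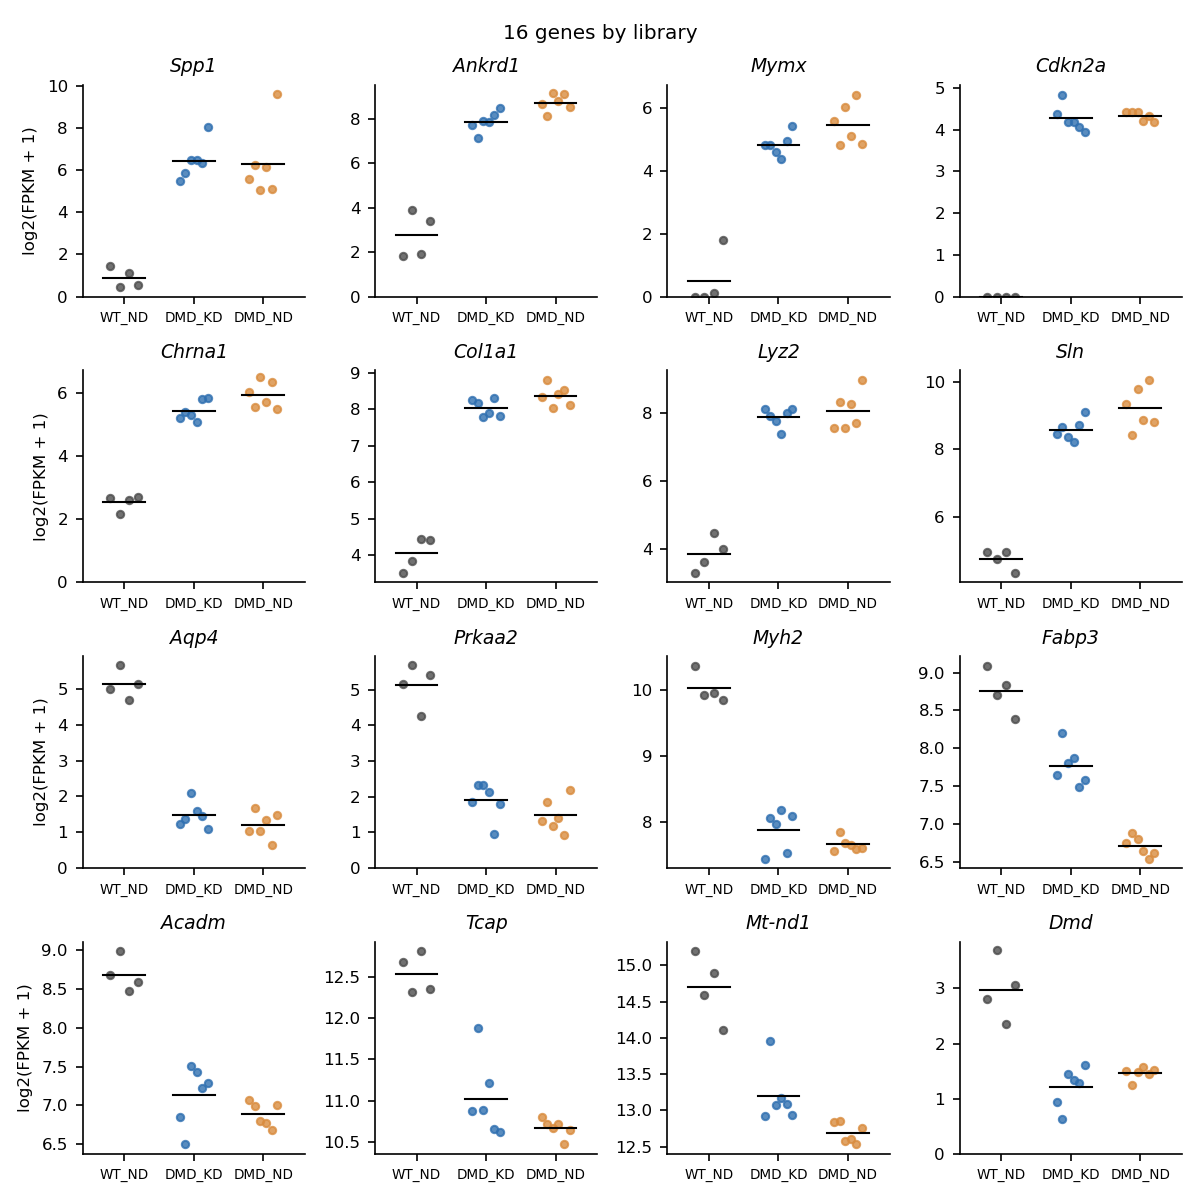
Log2(FPKM + 1) of 16 genes in each library of WT_ND (grey, n = 4), DMD_KD (blue, n = 6) and DMD_ND (orange, n = 6), with the group mean as a bar. The DMD_KD points lie clear of the wild types in every panel, and for Fabp3 they also lie between the wild types and DMD_ND.

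Genes of the extracellular matrix were higher nearly throughout. All 16 tested genes of the collagen list rose (median log2 change 2.36; all tested genes -0.06), led by Col1a1, the main chain of fibrous collagen, from 10.4, 13.3, 20.5 and 20.4 FPKM in the wild types to 221 to 313 (median 261) FPKM (3.99). The collagen VI chains, which tie fibres to their surroundings, rose together, with Col6a1 at 2.82, Col6a2 at 2.81 and Col6a3 at 2.59, and Col16a1 rose by 2.40. Of 9 proteoglycan genes 7 rose and none fell, with biglycan (Bgn) at 106 ± 15.8 against 6.64 ± 1.53 FPKM (3.82), lumican (Lum) at 2.90, Prelp at 2.37 and decorin (Dcn) at 1.72, although the Dcn libraries of the groups overlapped. Of 17 matricellular genes, whose products signal from the matrix more than they hold it together, 16 rose and none fell: fibronectin (Fn1) by 2.91, Thbs4 by 3.68, Thbs3 by 1.96, and Cthrc1 from 0.0662 ± 0.0547 to 6.81 ± 1.46 FPKM (2.85). Of the 16 that rose, 6 passed the filter through the mutants alone. So did 3 of the 16 collagen genes and 1 of the 7 proteoglycan genes that rose.

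The enzymes that shape and cut the matrix rose with it. Among proteases and inhibitors 12 of 15 rose and none fell, Mmp2 by 3.0 to 107 ± 25.1 FPKM, its activator Mmp14 by 3.14, Mmp19 by 1.90 and Adam19 by 2.38. Of the 12 that rose, 6 passed the filter through the mutants alone. Of 16 genes that fold, trim and crosslink collagen 13 rose and 1 fell, with Loxl1 at 3.48, Pcolce, which enhances procollagen cleavage, at 2.85, Fkbp10 at 2.48, Bmp1 at 2.46 and Loxl2 at 2.28. Through the mutants alone 3 of the 13 higher genes passed the filter. The single decrease, of the prolyl hydroxylase subunit P4ha1 (-0.60), flipped under TPM. Basement membrane genes rose less, 11 of 14 higher with a median of 1.03: Col4a1 by 1.44, Col4a2 by 1.34, Lamc1 by 0.93, and Lama4 by 1.22. Lama2, the laminin chain to which the dystrophin complex binds, rose from 1.87, 3.94, 3.13 and 4.30 FPKM in the wild types to 8.20 to 11.2 (median 9.00) FPKM (1.29). In the TGF-beta family, whose ligands drive fibrosis, 11 of 17 genes rose and 2 fell, and 3 of the 11 passed the filter through the mutants alone. Tgfb1 rose by 2.33 (from 5.29 ± 1.11 to 31.1 ± 9.01 FPKM), its receptor Tgfbr2 by 1.43, Gdf11 by 2.20 and Fstl1 by 2.13, whereas myostatin (Mstn), the muscle-made inhibitor of muscle growth, fell from 4.02, 10.4, 6.68 and 14.1 FPKM to 0.645 to 2.63 (median 1.67) FPKM (-1.78).

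Markers of the cells that make matrix stood beside these. Of 12 tested markers of fibro-adipogenic progenitors 11 rose and none fell, with a summed level of 870 to 1590 FPKM in DMD_KD and 163 to 349 FPKM in WT_ND. Smoc2 rose by 2.26, Dpt by 2.58, Fap by 2.06 and Mfap5 by 1.99, while Dpp4 and Tcf21 were below the filter, with Tcf21 at 0 in every DMD_KD library. Tendon cell markers rose in 5 of 8, by 3.68 for Thbs4 (also on the matricellular list) and 2.01 for Comp, with a summed level of 88.6 to 150 against 21.7 to 49.4 FPKM. In a whole muscle, more cells of a type and more RNA per cell cannot be told apart, and their part in the matrix counts was not tested.

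Immune genes were higher as well. All 21 tested macrophage markers were higher (median 2.70), with a summed level of 630 to 949 FPKM in DMD_KD against 42.2 to 98.3 FPKM in WT_ND and a 22nd, Cx3cr1, below the filter. Through the mutants alone 2 of the 21 passed the filter. Lyz2, the lysozyme of macrophages, went from 8.79, 11.3, 20.8 and 14.7 FPKM in the wild types to 167 to 278 (median 247) FPKM (4.05). Tyrobp, the signalling adaptor of their receptors, rose by 3.17, Folr2 by 2.86, C1qa by 2.92 and Laptm5 by 2.63. Markers of other leukocytes were fewer. T and natural killer cell markers were at low level, and the 4 tested, all called higher, reached 1 FPKM in no wild-type library, so that they passed the filter through the mutants and their count says little (Cd8a 1.24 ± 0.360 against 0.207 ± 0.112 FPKM, Nkg7 1.77 ± 0.582 against 0.420 ± 0.130 FPKM; 7 others, among them Cd3e, below the filter and Cd3d at 0 in the wild types). The same holds for 2 of the 4 tested neutrophil markers, all called higher (S100a9 3.19 ± 1.38 against 0.836 ± 0.162 FPKM), with 6 others below the filter. With wild-type replicates 1 and 4 left out 2 of the 4 passed the test. Of 5 mast cell markers 4 were higher (Cma1 9.95 ± 2.98 against 3.20 ± 1.79 FPKM). Of the B and plasma cell list 2 genes were tested, with Jchain, the joining chain of secreted antibodies, higher (0.80) and Xbp1, a secretory factor of many cell types, not passing (-0.18). Their summed levels overlapped, at 41.3 to 66.9 FPKM in DMD_KD and 42.0 to 72.6 FPKM in WT_ND.

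Of 17 complement genes 15 rose and none fell (median 2.18), and 3 of the 15 passed the filter through the mutants alone. The first component's chains C1qa and C1qc rose by 2.92 and 2.70, its protease C1r by 2.18, the inhibitor Serping1 by 2.19, factor B (Cfb) by 2.75 and factor D (Cfd), also an adipocyte product, from 7.11, 14.4, 16.2 and 7.57 FPKM to 58.4 to 179 (median 90.1) FPKM (3.06). Antigen presentation was higher for 13 of 14 genes, with the class II chain RT1-Da at 37.3 ± 6.83 against 4.45 ± 2.04 FPKM (2.86), its chaperone Cd74 at 2.53 and the class II transactivator Ciita at 1.05, though reads of near-identical RT1 copies may have been split in the counting. Chemokines and cytokines were higher for 13 of 16 genes and lower for none, with the monocyte attractant Ccl2 at 11.2 ± 4.76 against 0.362 ± 0.340 FPKM (3.10), Ccl9 at 2.07, Ccl21 at 2.86 and the macrophage growth factor Csf1 at 1.57. Of these 13 higher genes, 5 passed the filter through the mutants alone, as did 1 of the 13 higher antigen presentation genes. Of 9 S100 genes 8 were higher, S100a10 by 3.17, S100a6 by 2.53 and S100a11 by 2.33. The muscle-fibre form S100a1 was lower (-1.01). This call was lost under TPM (-0.28, limma adjusted p = 0.0971), with wild-type replicates 1 and 4 left out (-0.58, limma adjusted p = 0.121) and with the replicate block (limma adjusted p = 0.0628). Inflammasome genes were higher for 7 of 9, led by the adaptor Pycard (1.99), and 1 was lower, the kinase Nek7 (-1.03). Of these 7, 4 passed the filter through the mutants alone. The NADPH oxidase of phagocytes was higher for 5 of 6 genes, 4 of which passed the filter through the mutants alone, with the membrane subunit Cyba at 35.4 ± 10.2 against 4.32 ± 1.31 FPKM and Ncf4 at 2.23.

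The interferon response shared this direction in its calls, with a smaller median. Of 19 genes, 9 rose and 1 fell, beside 27.3% higher and 31.1% lower over all genes, and 9 did not pass the test. Through the mutants alone 1 of the 9 that rose passed the filter. The median was 0.13, beside 0.61 in DMD_ND, where 14 rose. Ifitm3 (1.55), Gbp2 (1.01), Irf1 (1.02) and Stat2 (0.45) rose, and the antiviral synthetase Oas1a, at 0.990 ± 0.358 against 1.76 ± 0.786 FPKM, fell (-0.44, limma adjusted p = 0.0387), a call lost without any one of DMD_KD replicates 1, 7, 9 and 10 or wild-type replicates 3 and 9 (limma adjusted p = 0.0541 to 0.172). The difference between the diets was not tested for the list, and with wild-type replicates 3 and 9 left out 4 genes rose.

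Vessel markers gave few calls. Of 10 endothelial genes, 1 rose (Egfl7, 0.61), 2 fell, among them Cdh5, the adhesion protein of endothelial junctions (-0.52, above 0 under TPM; both calls were lost with wild-type replicates 1 and 4 left out, limma adjusted p = 0.0613 and 0.077), and 7 did not pass, and the summed level of 82.9 to 111 FPKM covered nearly the same range as the 86.2 to 117 FPKM of the wild types. Of 12 pericyte and smooth muscle genes 4 rose, beside 27.3% of all genes, among them Pdgfrb (1.09) and Cspg4 (1.12). The 1 that fell was the potassium channel subunit Abcc9 (-1.03), which striated muscle also makes. Adipocyte markers rose in 5 of 12 and fell in 2, beside 27.3% higher and 31.1% lower over all genes. Of the 5 that rose, 2 passed the filter through the mutants alone, and of the other 10 tested 3 rose. The 2 that fell, Plin4 (-1.06) and Dgat2 (-1.87), are also made by muscle fibres, whose part was not tested. Adiponectin (Adipoq), which only fat cells make in quantity, varied widely among the DMD_KD libraries, at 8.35 to 44.1 (median 17.4) FPKM, and among the wild types, at 2.89, 14.3, 3.13 and 2.23 FPKM, and the groups overlapped. Its log2 change was 1.88 (limma adjusted p = 0.00573, 0.0904 with wild-type replicates 1 and 4 left out).

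Genes of muscle building were higher. Of 17 myogenic and fusion genes 15 rose and none fell (median 1.78), and 2 of the 15 passed the filter through the mutants alone. Mymx, the small membrane protein that with Mymk fuses myoblasts, was read at 0, 0, 0.0961 and 2.51 FPKM in the wild types and at 19.9 to 42.0 (median 27.6) FPKM in DMD_KD, and Mymk at 0.258, 0.113, 0.308 and 1.13 and 16.5 to 34.9 (median 28.5) FPKM. Both were close to 0 in the wild types, apart from Mymx in replicate 9, and the lowest DMD_KD library lay above the highest wild type by far. Genes of newly formed fibres rose too: neonatal myosin (Myh8) by 2.95 (its reads may be shared with other myosin heavy chains), cardiac troponin T (Tnnt2), which immature fibres make, by 2.82 and the adhesion protein Ncam1 by 2.41. Acta2, which is also on the pericyte and smooth muscle list, rose by 1.33. The embryonic light chain Myl4 rose from 15.1 ± 2.44 to 154 ± 59.3 FPKM (3.21). The cardiac markers Nppa, Nppb, Myl7 and Tnni3 were below the filter and at 0 in the wild types, while none of them was at 0 in every DMD_KD library. Of 10 satellite cell markers 4 were higher, beside 27.3% of all genes, and 6 did not pass (median 0.14). Of the 4 higher markers, 2 passed the filter through the mutants alone. Pax7, the factor that defines these cells, was at 1.25 ± 0.330 against 0.686 ± 0.113 FPKM (0.41; limma adjusted p = 0.0692 with wild-type replicates 1 and 4 left out) and Myf5 at 0.91. Of 5 tested cell cycle genes 3 rose, Cdk1 (0.99) and Tyms (0.55; limma adjusted p = 0.0775 with the same libraries left out) among them, with Pcna at 15.1 ± 4.19 against 13.3 ± 1.05 FPKM not passing. The 3 that rose passed the filter through the mutants alone.

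The IGF axis and imprinted genes active in growing muscle were higher for 11 of 13 genes. H19, a long noncoding RNA, was already abundant in wild type and went from 908, 781, 878 and 702 FPKM to 2988 to 6589 (median 3690.3) FPKM (2.26). Its neighbour Igf2 rose by 2.58, Igfbp6 by 2.83, Igfbp4 by 2.05 and Mest by 1.48. Among the Wnt genes the secreted antagonists rose (Sfrp4 3.72, Sfrp2 3.20, Sfrp1 2.35, Dkk3 1.48), and Axin2, a readout of canonical Wnt signalling, fell (-0.54), with 3 of the 8 not passing. Of the 4 that rose, 3 reached 1 FPKM in no wild-type library and passed the filter through the mutants alone.

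Postsynaptic genes of the neuromuscular junction, which fibres switch on along their whole length when they lose contact with nerve and while they are immature, were higher for 13 of 19, with 2 lower. Through the mutants alone 3 of the 13 higher genes passed the filter. The acetylcholine receptor subunits Chrna1, Chrnd and Chrne rose by 2.90, 2.88 and 1.45. Chrna1 was read at 5.45, 3.51, 5.16 and 5.47 FPKM in the wild types and 32.9 to 57.1 (median 40.0) FPKM in DMD_KD. The 2 that fell were the histone deacetylase Hdac4, named after its values were seen (-0.60, a call lost under TPM, where it was at 0.016) and Prima1, at 9.84, 9.29, 16.6 and 21.3 FPKM in the wild types and 0.581 to 2.6 (median 1.01) FPKM in DMD_KD, below all 4. Of 8 Schwann cell markers 2 were higher (Pmp22 1.17 and S100b 1.42) and none lower, close to the 27.3% of all genes that were higher. Their summed level was 31.1 to 49.4 FPKM against 20.3 to 32.3 FPKM in the wild types, with the myelin gene Mbp, at 1.32 ± 0.234 against 1.19 ± 0.442 FPKM, not passing.

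Myogenic factors such as MyoD and myogenin bind E-boxes, and the promoters of 3 of these genes are shown because they carry the E-box CAGCTG, given in capitals, in the 250 bases before the RefSeq gene start (GRCr8): Chrna1 at chr3:78877354-78877603 (minus strand), Chrne at chr10:55834155-55834404 (minus strand) and Mymx at chr9:22894274-22894523 (plus strand, the first of 3 starts listed).
Chrna1: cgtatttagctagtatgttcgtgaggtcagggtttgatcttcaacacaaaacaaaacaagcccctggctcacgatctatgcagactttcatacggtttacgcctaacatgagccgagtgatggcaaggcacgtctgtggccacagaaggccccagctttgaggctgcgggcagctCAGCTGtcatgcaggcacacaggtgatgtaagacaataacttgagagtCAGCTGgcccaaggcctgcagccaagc
Chrne: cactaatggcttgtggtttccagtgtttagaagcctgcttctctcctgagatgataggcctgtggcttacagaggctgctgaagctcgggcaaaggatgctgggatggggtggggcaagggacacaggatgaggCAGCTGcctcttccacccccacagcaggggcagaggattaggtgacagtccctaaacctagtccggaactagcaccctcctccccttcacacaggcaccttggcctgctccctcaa
Mymx: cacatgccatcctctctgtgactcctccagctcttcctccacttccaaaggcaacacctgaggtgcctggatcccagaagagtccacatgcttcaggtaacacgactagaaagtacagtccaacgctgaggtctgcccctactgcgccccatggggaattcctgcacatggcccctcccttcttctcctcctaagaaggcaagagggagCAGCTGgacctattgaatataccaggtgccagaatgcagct
The motif reads the same on both strands and was the only one searched. It occurred 2 times in the Chrna1 window and 1 time in each of the others. Over one window per gene, it was present for 6 of 13 matched junction genes (46.2%; Chrna1, Chrnb1, Chrne, Etv5, Musk and Prima1) and 4 of 13 matched myogenic genes (30.8%; Acta2, Mest, Mymx and Tnnt2), beside 12.6% of the 8403 tested genes with a window and 11.9% of all 27457 genes of the promoter table. Prima1, which fell, and Chrnb1, which did not pass the test (-0.07), have the motif as well. A match describes the letters only.

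Genes of cell cycle arrest and cell death were higher for 10 of 16, with 3 lower, and 4 of the 10 passed the filter through the mutants alone. Cdkn1a, the p21 inhibitor of cyclin-dependent kinases, was read at 2.44, 1.75, 4.10 and 6.12 FPKM in the wild types and 48.5 to 134 (median 77.0) FPKM in DMD_KD. Cdkn2b rose by 2.65 beside Cdkn2a, and the lysosomal galactosidase Glb1, whose activity is used as a senescence stain, by 1.67, whereas Sesn1, a stress-induced regulator of mTORC1, fell (-0.94). Macrophage markers, like these and the lysosome list, were higher in DMD_KD, and whether the lists vary together across libraries was not tested. Of 14 lysosomal genes 8 rose, the cathepsins Ctsk (2.95), Ctss (2.86) and Ctsb (1.63) among them, and acid glucosidase (Gaa), which breaks glycogen in the lysosome, fell (-0.92). The share of macrophages in these changes was not tested.

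Genes of oxidative metabolism were lower almost without exception. All 21 tested genes of mitochondrial fatty acid oxidation fell (median -0.90), on a diet that supplies fat as fuel. Acadm, the dehydrogenase of medium-chain fatty acids, was read at 409, 505, 356 and 385 FPKM in the wild types and 89.4 to 180.4 (median 151) FPKM in DMD_KD (-1.55, SE 0.18, limma adjusted p = 1.55e-06), with no overlap. Acadvl, its counterpart for very long chains, fell by 1.24, Hadh by 1.12, Etfdh, which passes their electrons on, by 1.03 and Acad9 by 0.89. All 21 genes of pyruvate entry and the TCA cycle fell (median -1.08), the pyruvate dehydrogenase subunits Dlat (-1.44), Pdhx (-1.21) and Pdhb (-1.07) and the cycle enzymes Dlst (-1.05) and Suclg2 (-0.95) among them. Under TPM the medians stayed below 0, at -0.17 and -0.35, with 7 and 12 genes lower.

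The respiratory chain followed. Of 18 nuclear genes of complex I 16 fell (Ndufs1 -1.40, Ndufb3 -0.95, Ndufv2 -0.94), and of 23 of complexes II to V 21 fell (Sdha -1.46, Uqcrc2 -1.25, Sdhd -0.95, Atp5pb -0.94, cytochrome c, Cycs, -1.10), with none of either higher. All 13 mitochondrially encoded messages fell, with a median of -1.23: Mt-nd1 was read at 37399, 24706, 30539 and 17579 FPKM in the wild types and 7788 to 15949 (median 8648) FPKM in DMD_KD, Mt-nd5 fell by 1.48 and Mt-nd2 by 1.44. The 3 medians stayed below 0 under TPM (-0.19, -0.21 and -0.48), where 5, 7 and 13 genes were lower. For complex I the mean level of replicate 3, 7.09 on the log2 scale, lay within the wild-type range of 7.04 to 7.61, and the other 5 lay between 6.15 and 6.59.

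Regulators of mitochondrial content fell in 12 of 19 and rose in none. Prkaa2 was the largest, and the coactivators Ppargc1a, the central inducer of mitochondrial genes (4.38, 10.3, 4.84 and 7.66 FPKM in the wild types, 1.17 to 2.41 (median 1.47) FPKM in DMD_KD, -1.52), and Perm1 (-1.67) and the nuclear receptors Ppara (-1.35) and Esrrg (-1.29) followed, each with separate groups. For this list the 10 libraries separated on the mean level too, 2.43 to 2.61 in DMD_KD against 3.19 to 3.39 in WT_ND on the log2 scale, replicate 3 included.

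**Figure D3:**
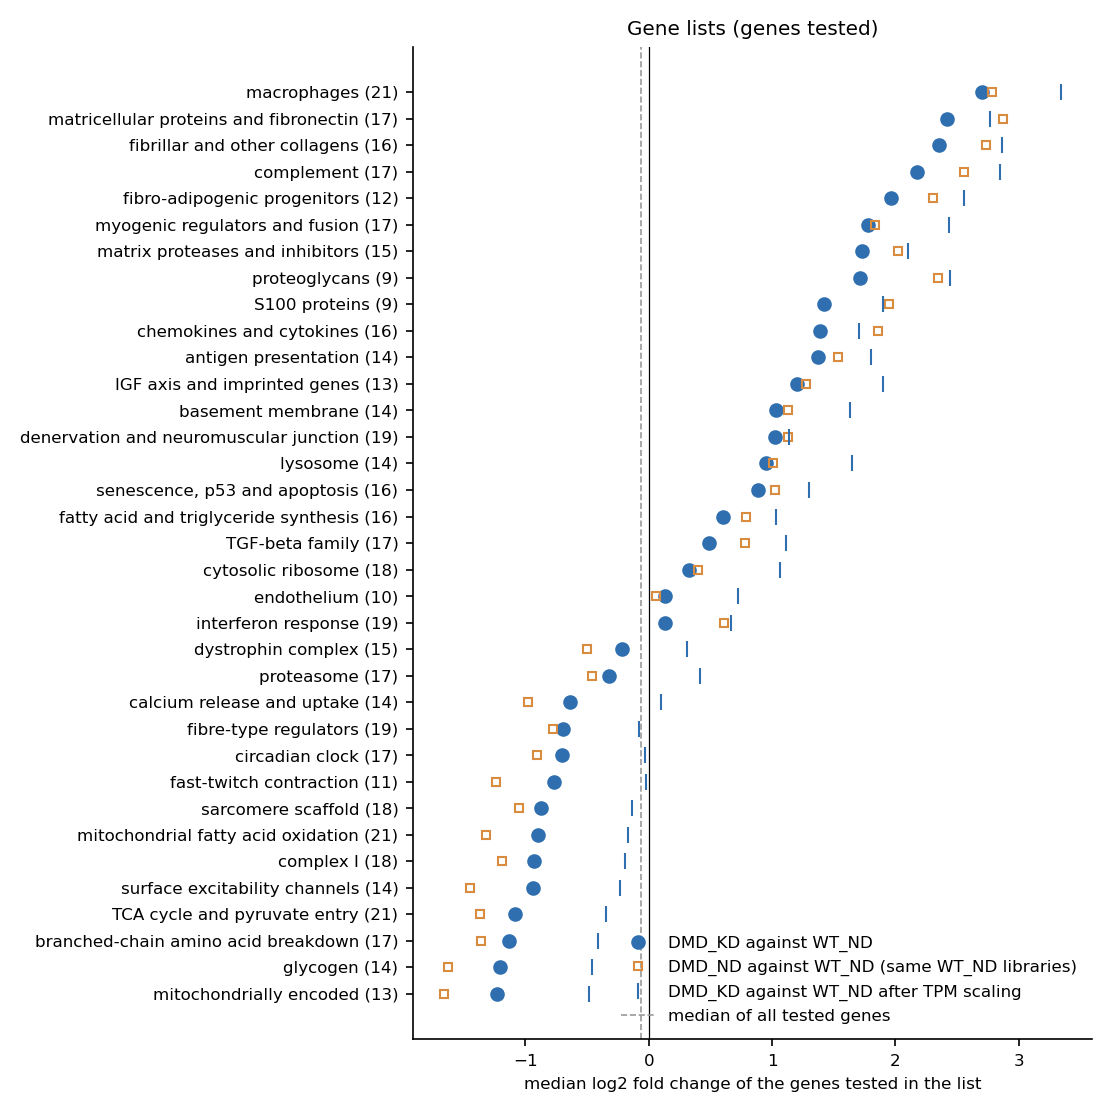
Median log2 fold change of the tested genes in 35 lists, with the number tested in brackets, for DMD_KD against WT_ND (filled circles), DMD_ND against the same wild types (open squares) and DMD_KD against WT_ND after TPM scaling (ticks). Matrix, immune and myogenic lists lie to the right, up to 2.70 for macrophages, and energy lists to the left, down to -1.23 for mitochondrially encoded genes, while TPM moves every list to the right.

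Handling of fat changed in both directions. Lipid uptake and activation fell in 5 of 11 and rose in none, with the acyl-CoA synthetases Acsl1 (-1.47) and Acsl6 (-1.45), the fatty acid carrier Fabp3 (-0.99) and lipoprotein lipase (Lpl, -0.83) lower; the list's median of -0.22 turned to 0.49 under TPM. Among lipid droplet genes 6 of 12 fell, Dgat2 by 1.87 and Plin5, which couples droplets to mitochondria, by 1.24, and 2 rose, Plin2 (1.32) and Cidea (1.71); their median of -0.43 was 0.27 under TPM. Targets of PPAR-alpha, the nuclear receptor that fatty acids activate, fell in 9 of 16 and rose in 4. Ehhadh fell by 1.49 and Acot2 by 0.94 (its reads may be shared with close copies), and Ucp2 rose from 4.65 ± 0.789 to 29.8 ± 5.56 FPKM (2.44), a gene that macrophages also express. Pdk4, the fasting-induced brake on pyruvate dehydrogenase, spread over 43.3 to 329.9 (median 130.0) FPKM in DMD_KD and 134, 394, 198 and 450 FPKM in WT_ND and did not pass the test (log2 change -1.01, 95% interval -1.98 to -0.04). It passed in 6 other settings. The limma adjusted p was 0.0372 and 0.0188 without DMD_KD replicates 7 and 10 and 0.0293 without wild-type replicate 1. It was 0.0181 without wild-type replicates 1 and 4 (log2 change -1.69), 0.0104 with one weight per library and 0.0155 with the replicate block (-1.68).

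Ketone body use and monocarboxylate transport fell in 6 of 10 and rose in 2, a median of -0.61 that was 0.03 under TPM. Oxct1, the enzyme that lets tissues burn ketone bodies, was read at 118, 173, 114 and 144 FPKM in the wild types and 27.7 to 59.4 (median 44.6) FPKM in DMD_KD (-1.66), with DMD_ND at 43.0 ± 4.28 FPKM. Acat1, the next step, fell by 1.09, and the transporter Slc16a1 by 0.83. Fatty acid synthesis went up in 9 of 16 and down in 4: the desaturases Scd (2.48 ± 4.06 to 24.0 ± 11.9 FPKM, 3.31) and Scd2 (2.06), the elongase Elovl1 (1.35) and Fads1 (1.17) rose, while Acacb (-1.07) and Lpin1 (-1.69), both typical of muscle fibres, fell. In cholesterol synthesis 5 of 14 rose (Msmo1 0.82 among them) and 3 fell (Fdft1 -1.26 among them), with 5 lower when replicate 3 was left out. Over all genes 27.3% rose and 31.1% fell.

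Carbohydrate and amino acid breakdown fell as well. Of 14 glycogen genes 12 fell and 1 rose (median -1.20, -0.46 under TPM): the phosphorylase kinase subunit Phkg1 by 1.72 and the glycogen-targeting subunit Ppp1r3c by 1.70, while Pygb, the brain form of glycogen phosphorylase, rose (0.97). In glycolysis 10 of 19 fell and 4 rose, and isoforms moved apart: Pfkm, the muscle phosphofructokinase, fell from 1304 ± 319 to 598 ± 207 FPKM (-1.15) and Pfkp, the platelet form, rose from 0.747 ± 0.111 to 2.95 ± 0.622 FPKM (1.16), with Hk1 at 0.77, Ldhb at -1.43 and the glucose transporter Slc2a4 at -0.90. The glycolysis median of -0.49 was 0.04 under TPM, and with wild-type replicates 1 and 4 left out 5 genes fell. Of 17 genes of branched-chain amino acid breakdown 16 fell (median -1.13, -0.41 under TPM), with Pcca at -1.32, Ppm1k, which activates the pathway's dehydrogenase, at -1.53 and Mccc2 at -1.13. The exception, the cytosolic aminotransferase Bcat1, rose from 0.269 ± 0.163 to 5.17 ± 1.24 FPKM (2.27).

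Energy buffers showed the same split by isoform. Myoglobin (Mb) fell from 2025, 1373, 1938 and 1042 FPKM in the wild types to 446 to 834 (median 479) FPKM (-1.57), and mitochondrial creatine kinase Ckmt2 (-1.45) and Adssl1 of the purine nucleotide cycle (-1.50) fell. The brain-type creatine kinase Ckb (2.16) and Gatm, the first enzyme of creatine synthesis (2.38), rose. Over the 10 genes of that list 5 fell and 3 rose.

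The contractile apparatus was lower relative to other genes. Of 18 genes of the sarcomere scaffold 15 fell and none rose (median -0.87, -0.14 under TPM, where 3 were lower). Tcap, which caps titin, was read at 6588, 5112, 7213 and 5241 FPKM in the wild types and 1565 to 3763 (median 1878) FPKM in DMD_KD. Myot (-1.12), Ldb3 (-1.07), the myosin chaperone Unc45b (-0.93) and nebulin (Neb, -0.97) fell with it. Of 11 fast-fibre genes 9 fell (median -0.77, -0.02 under TPM), most of all Myh2, the fast oxidative myosin, from 1313, 969, 986 and 914 FPKM to 174 to 291 (median 258) FPKM (-2.13), then Actn3 (-1.13; -0.67 and limma adjusted p = 0.196 with wild-type replicates 1 and 4 left out) and Myh4, the fastest myosin (-0.88). Slow-fibre genes fell in 7 of 14 and rose in 2 (median -0.53, which turned to 0.21 under TPM): Myl3 fell by 2.28, slow myosin (Myh7) by 1.57 and Myl2 by 1.38, and Casq2, the calsequestrin of slow and cardiac muscle, rose from 5.24 ± 1.29 to 63.1 ± 5.01 FPKM (3.38). Reads of the myosin heavy chains, which are near-identical in parts, may have been assigned uncertainly.

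The markers of skeletal muscle fibres fell beside these lists and beside the energy lists: 10 of 12 were lower and none higher, with a summed level of 41149 to 135870 FPKM in DMD_KD and 75806 to 138950 FPKM in WT_ND. With wild-type replicates 1 and 4 left out, 2 of these 12 and 2 of the 11 fast-fibre genes passed the test, whereas with wild-type replicates 3 and 9 left out both counts stayed within 1.5 times. Leaving out wild-type replicates 1 and 4 also moved the count of lower genes from 8 to 4 for calcium handling, from 8 to 3 for heat shock, from 7 to 4 for autophagy and from 5 to 3 for energy buffers, and the count of higher genes from 4 to 2 for satellite cell markers, from 5 to 3 for adipocyte markers and from 5 to 12 for ribosomal proteins. Leaving out replicates 3 and 9 moved the count of higher tendon cell markers from 5 to 3 and of ribosomal proteins from 5 to 3, and that of lower lysosomal genes from 1 to 4. Among the lists that keep the libraries of the groups apart without exception are branched-chain amino acid breakdown, the sarcomere scaffold, fatty acid oxidation, the TCA cycle and the regulators of mitochondrial content. In all, 47 of the 76 lists separated on the mean level of their genes. Single genes separated in 37.2%, but that share is no background for the lists, which average over genes and were chosen with earlier results known. The part of the fibre markers in the lower energy and contraction counts was not tested.

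**Figure D4:**
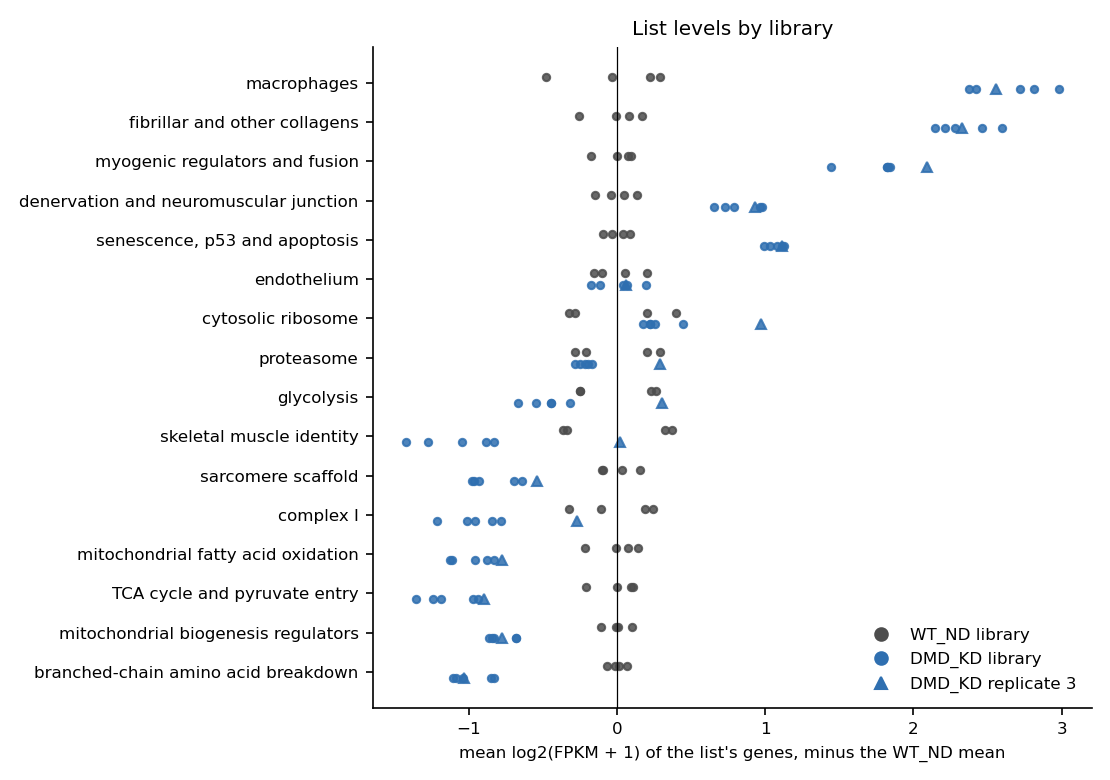
Mean log2(FPKM + 1) of the genes in 16 lists, minus the wild-type mean (x axis), for each WT_ND (grey) and DMD_KD (blue) library, with DMD_KD replicate 3 as a triangle. Matrix, immune and regeneration lists lie to the right of the wild types in all 6 DMD_KD libraries, while on complex I and skeletal muscle identity replicate 3 lies within the wild-type range and on glycolysis above it, with the other 5 below the wild types on all 3.

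Calcium handling and excitability fell with single strong exceptions. Of 14 genes of calcium release and uptake 8 fell and 1 rose (median -0.64, which turned to 0.10 under TPM, with 5 higher and 1 lower). Junctophilin 1 (Jph1), which holds the triad together, fell by 1.36, the voltage sensor Cacna1s by 1.11, Stac3 by 0.86 and Hrc by 0.84 (-0.56 and limma adjusted p = 0.0579 with wild-type replicates 1 and 4 left out). Sarcolipin (Sln), the small inhibitor of the sarcoplasmic reticulum calcium pump, rose from 30.1, 25.7, 30.1 and 19.2 FPKM in the wild types to 297 to 552 (median 377) FPKM (3.84), beside 646 ± 283 FPKM in DMD_ND. At the fibre surface 9 of 14 fell and 3 rose: Scn4a, the adult muscle sodium channel, fell by 1.23. Cacna2d1 was read at 44.1, 74.4, 23.8 and 59.0 FPKM in the wild types and 2.04 to 7.80 (median 5.23) FPKM in DMD_KD, and Atp1b4 rose by 2.39.

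The dystrophin complex fell in 7 of 15 genes and rose in 1 (median -0.22, 0.31 under TPM): beside Dmd, neuronal nitric oxide synthase (Nos1), which dystrophin anchors, fell by 1.24, Sgcb by 1.11 and Sntb1 by 1.09, and Lama2 rose. Membrane repair genes rose in 5 of 12, the annexins Anxa1 (2.6), Anxa2 (2.29) and Anxa5 (1.99) and the dysferlin relative Myof (1.55) among them, and fell in 3, with Ano5, a scramblase mutated in limb-girdle dystrophy, at -1.12. The shares over all genes were 27.3% higher and 31.1% lower. Fibre-type regulators fell in 14 of 19 and rose in 1 (median -0.69, -0.07 under TPM): Sox6, the repressor of slow genes, by 1.20, Vgll2 by 1.46, Nfatc3 by 0.96 and Six4 by 0.93. Tubulins moved by isotype, 6 higher and 4 lower of 10, with Tubb6 from 5.92 ± 6.15 to 42.8 ± 11 FPKM (2.96) and Tuba1b at 1.68 against the striated muscle form Tuba8 at -1.67. A like exchange was seen between a pair of ribosomal protein genes, the second of which was chosen after its values were seen: Rpl3 rose from 26.4 ± 5.04 to 119 ± 17.1 FPKM (2.14), and its striated muscle paralog Rpl3l fell from 437 ± 134 to 215 ± 107 FPKM (-1.09; -0.69 and limma adjusted p = 0.0878 with wild-type replicates 1 and 4 left out, 0.0681 with the replicate block). Over 18 cytosolic ribosomal protein genes 5 rose, close to the 27.3% of all genes, and none fell, with 9 higher when wild-type replicate 4 was left out and 18 under TPM.

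Stress pathways gave mixed counts. The amino acid response gene Asns, at 0.204 ± 0.145 FPKM in the wild types and 1.70 ± 0.372 FPKM in DMD_KD, rose by 1.16, and Mthfd2 (0.90) and the transporter Slc7a5 (1.3) rose, all at low level, while Atf4, the factor that drives them, fell from 446 ± 141 to 204 ± 38.2 FPKM (-1.09). Of the 12 genes of that list 5 rose and 2 fell, and all 5 passed the filter through the mutants alone. In the unfolded protein response 5 of 12 rose (Pdia4 1.08, Creld2 0.80) and 2 fell, beside 27.3% and 31.1% of all genes. Heat shock genes fell in 8 of 13 and rose in 1, Hspb8 (0.47; limma adjusted p = 0.0158, 0.0701 without wild-type replicate 3 and 0.0588 without wild-type replicate 9), with Hspd1 at -1.0 and Hspa8 at -0.79 (median -0.54, which turned to 0.19 under TPM). Antioxidant genes fell in 7 of 18 and rose in 5, beside 31.1% lower and 27.3% higher over all genes. The mitochondrial enzymes Sod2 (-1.46) and Prdx3 (-1.14) fell, and the secreted peroxidase Gpx3 (1.90) and Mgst1 (1.67) rose. Metallothioneins, the metal-binding proteins induced by zinc and glucocorticoids, rose strongly: Mt2A from 8.18, 12.2, 26.6 and 23.7 FPKM in the wild types to 106 to 486 (median 247) FPKM (3.69), Mt3 by 3.32 and Mt1 by 2.95, of which close copies may share reads.

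Protein turnover gave mixed counts. Of 17 atrophy genes 2 rose and 5 fell, no larger a share than the 27.3% and 31.1% of all genes: Gadd45a, induced in denervated and injured muscle, rose from 15.1 ± 12.2 to 56.1 ± 23.3 FPKM (2.0), and the ubiquitin ligase genes Fbxo40 (-1.14) and Trim54 (-1.12) fell. Autophagy genes fell in 7 of 14, led by Pink1 (-1.32), with a median of -0.40 that was 0.32 under TPM. Proteasome genes fell in 8 of 17 and rose in 3, the immunoproteasome subunits Psmb8 (1.21), Psmb9 (1.07) and Psmb10 (0.64; 0.35 and limma adjusted p = 0.108 with wild-type replicates 3 and 9 left out), but the count of lower genes was 4 without DMD_KD replicate 1, 5 without replicate 5 or without replicate 9, 4 without wild-type replicate 1, 3 without wild-type replicate 4, 2 without both and 0 under TPM.

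Genes that respond to the time and manner of sampling gave unlike counts in the 2 lists described. Clock genes fell in 12 of 17 and rose in 2 (median -0.71, -0.03 under TPM): the clock outputs Tef (-1.22) and Hlf (-1.16), Ciart, from 11.9, 10.3, 14.9 and 10.6 FPKM in the wild types to 0.898 to 4.34 (median 1.95) FPKM (-2.11), and Bhlhe41 (-1.15) fell, and Npas2 rose (0.66; limma adjusted p = 0.0566 and 0.0668 with wild-type replicates 1 and 4 or 3 and 9 left out). The sources used here give no time of day for the sampling, and its part was not tested. Immediate early genes rose in 3 of 17 and fell in 4, no larger a share than the 27.3% and 31.1% of all genes. Atf3 was at -1.89, Nr4a1 at -1.28 and Jun at -1.07 against Ier3 at 1.51.

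Fold changes of DMD_ND rest on the same 4 wild types and are set here beside those of DMD_KD as values. The collagen median was 2.36 in DMD_KD and 2.73 in DMD_ND, that of proteoglycans 1.72 and 2.35, of macrophages 2.70 and 2.78, of fatty acid oxidation -0.90 and -1.32, and of mitochondrially encoded genes -1.23 and -1.66. Between the 2 mutant groups themselves, 1 gene of 12119 (0.00825%) passed the limma adjusted p of 0.05, with 1727 genes at an unadjusted p under 0.05. Weighting each library by its scatter, with 0.129 for DMD_KD replicate 3, let 93 genes pass, and without DMD_KD replicate 9 the number was 7. The 1 gene was Fabp3 (log2 change between the diets 1.06, SE 0.14, limma adjusted p = 0.00772). Fabp3 was read at 179 to 294 (median 211) FPKM in DMD_KD, between the 92.1 to 117 (median 103) FPKM of DMD_ND and the 545, 415, 458 and 333 FPKM of the 4 wild types, with no overlap on either side, so that it remained below wild type by 0.99 (SE 0.16, limma adjusted p = 4.28e-05).

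The genes with the next smallest p between the diets did not pass that adjustment, and are given as values. Vwa8 was at 9.04 ± 1.33 FPKM in DMD_KD, 16.6 ± 1.93 in WT_ND and 5.80 ± 0.642 FPKM in DMD_ND, a change from wild type of -0.82. The mitochondrial carrier Slc25a42 (-0.69 from wild type, -1.33 in DMD_ND), the isomerase Eci2 (-0.55 and -1.01) and the peroxisomal hydrolase Nudt7 (-0.55 and -1.25) were lower than wild type in both, and Plin5 (-1.24 and -2.03) and Hadh (-1.12 and -1.63) likewise. Under TPM the DMD_KD change of Slc25a42, Eci2 and Nudt7 lay above 0. Of the 10 genes with the smallest p, 2 were higher than wild type: the B-cell attractant Cxcl13 (1.3 and 2.47) and the retinoic acid carrier Crabp2 (2.54 and 3.36).

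Some abundant genes varied widely within DMD_KD. Cish, an inhibitor of cytokine signalling induced by STAT5, was read at 10.5 to 104 (median 24.5) FPKM, against 8.23, 2.02, 5.77 and 7.16 FPKM in the wild types, a rise of 2.12 (SE 0.61, limma adjusted p = 0.00672; 0.0621 with wild-type replicates 3 and 9 left out) with separate groups, and at 6.02 to 31.2 (median 21.1) FPKM in DMD_ND. Haemoglobin alpha (Hba-a2), a marker of blood in the sample, spread over 15.7 to 164 (median 46.6) FPKM in DMD_KD and 108, 46.7, 88.5 and 42.5 FPKM in WT_ND, and neither it nor the other tested erythrocyte gene passed the test (log2 change -0.43, 95% interval -1.38 to 0.52).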

How the data were processed

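Frozen tibialis anterior muscle gave total RNA, from which poly-A RNA was sequenced as random-primed cDNA, per the labels' protocols. Per the submitters' processing notes, the tools were HISAT2 2.0.5 and featureCounts 1.5.0-p3 on mRatBN7.2; the strand setting and annotation release were not stated in what was read here. The authors deposited FPKM values for 31141 Ensembl genes in 16 libraries, per the file headers. Multiplied by gene length, 100% of the values came out as whole reads (within 0.05), and the library size they imply is the median-of-ratios size factor times a constant.

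Log2(FPKM + 1) of the 12119 genes that reached 1 FPKM in 4 or more libraries was fitted with limma 3.58.1 (R 4.3.3; trended, robust, 13 residual degrees of freedom) on all 16 libraries, since the 3 groups then share one estimate of the spread, and p-values were Benjamini-Hochberg adjusted over all tested genes. A gene is called at an adjusted p under 0.05. Fold changes on that scale understate those of low genes. The script was tested on data with known changes first. Library measures used Python 3.11.15, numpy 2.4.6 and pandas 2.3.3 with exact two-sided permutation tests over 210 relabellings, whose smallest p is 0.00476.

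The genes compared, the 76 gene lists and the tests were chosen with earlier results of these data known. Lists were described by counts and medians without a test. Genes named are Dmd, the 12 largest increases and decreases among called genes (mean of 5 FPKM or more in the group that was higher), up to 5 members per list with the smallest p plus the largest called change each way, all members of lists with 8 or fewer tested genes, the smallest p between the diets, genes that vary most within DMD_KD, genes at 0 in one group, and cell type markers at 0 or below the filter. Some genes that this rule picks are not reported here. Promoters are RefSeq windows (GRCr8) matched by symbol. Alternatives are given in the closing section. No library was close enough to another of its group to be a repeat (chi-square per degree of freedom 11.7 or more, genes with 20 reads or more).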

Additional observations from a re-analysis of the deposited data

Results flagged for a closer look

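Among 90 groups of values examined for a sample far from the others, of which chance alone marks about 1 in 20, 11 held one, and 6 of these lay in DMD_KD replicate 3. In that library the 10 most abundant genes took 29.598% of reads, against 21.4 to 24.0% in the other DMD_KD libraries, and 10605 genes reached 1 FPKM, the fewest of its group. It was also the highest DMD_KD library for Cdkn1a (133.89 FPKM), Barx2 (0.49952 FPKM), Unc5a (0.74564 FPKM) and Ppp1r1a (47.09 FPKM), so that it was nearer to wild type than its group for Barx2, Unc5a and Ppp1r1a and further from it for Cdkn1a. DMD_KD replicate 10 stood above its group for Spp1 (257.27 FPKM) and Gpnmb (128.87 FPKM). Single wild types stood above theirs for Ctxn3 (1.8821 FPKM, replicate 3), Mymx (2.5149 FPKM, replicate 9) and Gpnmb (23.748 FPKM, replicate 9), each still below every DMD_KD library.

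Fabp3 differed between the diets: its log2 change against wild type was smaller in size in DMD_KD than in DMD_ND by 1.0627, in the test of the difference itself.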

How the results depend on the processing

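Of 278 named genes that were called, 224 were called in the same direction under every setting tried. Under TPM scaling 45 lost the call or turned, against 16 under TPM over nuclear genes (added after the data were seen), 10 and 5 with wild-type replicates 1 and 4 or 3 and 9 left out (added likewise), 7 with the replicate block and at most 2 under any other setting. The 6 that turned under TPM were Slc25a42 (0.016), Hdac4 (0.016), Eci2 (0.17), Nudt7 (0.14), P4ha1 (0.086) and Cdh5 (0.18). The other 39 that lost the call there were Abcc9, Acacb, Acad9, Acot2, Actn3, Ano5, Atp5pb, Axin2, Cycs, Etfdh, Gaa, Hrc, Hspa8, Hspd1, Jph1, Jun, Lpl, Myh4, Myot, Ndufb3, Ndufv2, Neb, Nek7, Nfatc3, Oas1a, Pdhb, Plin4, S100a1, Sdhd, Sesn1, Sgcb, Six4, Slc16a1, Slc2a4, Stac3, Suclg2, Unc45b, Uqcrc2 and Vwa8. Counts of called genes that moved by over 1.5 times were as follows. TPM gave 6909 higher, 576 lower, 2537 higher and 73 lower by at least 2-fold. TPM over nuclear genes gave 1283 lower and 180 lower by at least 2-fold. Testing only genes with a mean of at least 5 FPKM, which leaves 6244, gave 3950 called, 1302 higher, 672 higher by at least 2-fold and 4361 called for DMD_ND against WT_ND. Log2(FPKM + 0.1) gave 2175 and limma voom on the recovered reads 2191 genes higher by at least 2-fold. Without wild-type replicates 3 and 9, 1041 genes were lower by at least 2-fold. Between the diets, one weight per library gave 93 called genes, and leaving out single libraries gave 1 to 7. Leaving out single libraries moved the difference in reads from -1704628 to 549116 and that in size factor from 0.30 to 0.46, with exact permutation p of 0.0952, 0.0833 and 0.0595 without wild-type replicates 1, 4 and 9. The cause was not tested in any of these.

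The labels give replicate numbers 1, 3 and 9 in both groups, but the numbers share no stated source, and deviations of same-numbered libraries correlated at -0.04, -0.66 and 0.41, so they were not taken to pair samples. With the number as a replicate block 5190 genes were called, 2465 of them lower, and between the diets limma called 0 under that block (1249 at an unadjusted p under 0.05), beside 1 by voom without it. By exact rank-sum tests 5255 genes were called, 5164 of them among the 7068. Depth limits the low genes: 3 reads correspond to 0.188 FPKM for Cdkn2a in the wild types.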
